A study of Homo sapiens with 28 samples.

Results

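The core of the G1 cell cycle switch was followed in SK-N-AS neuroblastoma cells as MYCN was induced: the D cyclins CCND1, CCND2 and CCND3, the E cyclins CCNE1 and CCNE2, the kinases CDK4 and CDK6, the inhibitors CDKN1B and CDKN2A, and SKP2. These 10 genes were taken by name from the gene symbols of the array platform. They have 27 of the 41091 probe sets that name a single gene, and 9 of the 10 were among the 11865 genes (of 19775) bright enough to be tested. SK-N-AS cells are a human neuroblastoma line long established in culture. RNA of 2 derivatives was hybridised to 28 Affymetrix arrays. The MYCN line (SK-N-AS-tet) carries a MYCN gene that doxycycline turns on, and was harvested at 7 times labelled 0, 4, 8, 24, 48, 96 and 192, with 3 replicate arrays at each. The mock line (SKNAS-pcDNA6TR) was harvested after doxycycline at the same times, with 1 array at each. The labels give no unit for the times, do not say whether either derivative is a single clone, and do not say whether replicates were separate cultures. The p-values then measure the spread between these arrays, which may be technical.

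D cyclins bind CDK4 and CDK6 and start the phosphorylation of the retinoblastoma protein, which releases E2F transcription factors. E cyclins, with CDK2, complete that step and open S phase. CDKN1B encodes p27, an inhibitor of cyclin-CDK2 complexes; SKP2 is the subunit of a ubiquitin ligase that marks p27 for destruction. CDKN2A encodes p16, an inhibitor of CDK4 and CDK6, and from another reading frame ARF, which stabilises p53. MYC proteins bind DNA at the E-box, and several genes of this group are described as their targets in neuroblastoma and other cells.

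The stretch around the transcription start was read for the E-box in its CACGTG form, a palindrome that is the same on both strands, because the induced factor binds it. RefSeq windows (GRCh38.p14) that run from 250 bases before to 50 bases after a start were read for 7 of the 10 genes, 11 windows in all. CCND1 and CCND2 had no window at hand, and CCNE2 was left out of this reading. The E-box letters stood in 2 of the 11 windows, against 7.26% of the 35116 windows of all genes. The CDK4 window (chr12:57752261-57752560, minus strand) holds 3, which begin 216, 196 and 101 bases before the start. One of the CDK6 windows (chr7:92836524-92836823, minus strand) holds 1, which begins at base 30 after the start. The windows of CCNE1 (chr19:29811741-29812040, plus strand) and CDKN1B (chr12:12717118-12717417, plus strand) hold none; with CCND1, for which no window was at hand, these were the members that passed the test at 3 or more times. Below, each is written 5′ to 3′ in lower case with the E-box in capitals. A match is a description of the letters and not of binding.
CDK4: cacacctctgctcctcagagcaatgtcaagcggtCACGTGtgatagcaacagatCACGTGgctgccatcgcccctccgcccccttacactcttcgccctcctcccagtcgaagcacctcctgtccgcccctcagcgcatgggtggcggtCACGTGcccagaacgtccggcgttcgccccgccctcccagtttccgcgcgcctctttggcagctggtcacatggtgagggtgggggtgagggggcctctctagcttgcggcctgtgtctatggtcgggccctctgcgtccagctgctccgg
CDK6: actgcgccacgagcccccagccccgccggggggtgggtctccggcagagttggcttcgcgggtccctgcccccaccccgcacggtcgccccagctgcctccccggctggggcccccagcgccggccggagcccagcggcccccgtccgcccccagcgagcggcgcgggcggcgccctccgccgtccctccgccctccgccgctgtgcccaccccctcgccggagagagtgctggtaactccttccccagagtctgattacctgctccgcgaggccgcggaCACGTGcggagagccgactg
CCNE1: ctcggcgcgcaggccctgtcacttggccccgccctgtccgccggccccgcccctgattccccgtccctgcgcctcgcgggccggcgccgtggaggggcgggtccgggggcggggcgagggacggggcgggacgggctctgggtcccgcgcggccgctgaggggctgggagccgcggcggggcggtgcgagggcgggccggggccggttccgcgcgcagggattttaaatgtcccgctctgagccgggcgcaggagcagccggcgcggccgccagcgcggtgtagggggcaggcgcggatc
CDKN1B: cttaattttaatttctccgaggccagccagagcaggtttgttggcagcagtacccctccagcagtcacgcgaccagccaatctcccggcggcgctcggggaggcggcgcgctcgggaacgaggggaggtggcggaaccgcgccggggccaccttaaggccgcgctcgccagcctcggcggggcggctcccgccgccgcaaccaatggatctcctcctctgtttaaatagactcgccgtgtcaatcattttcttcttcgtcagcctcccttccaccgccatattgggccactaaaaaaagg

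Induction was checked on MYCN itself. Its signal, the intensity that summarises a probe set on an array, was 84 ± 17.5 (SD, n = 3) before induction, 2168 ± 820 by time 4 and still 3193 ± 112 by time 192. In the mock line it read 1.6 to 3. The MYCN line thus already read higher at time 0, at 69.4 to 103.4 against 2.3. Any part of this in the other differences between the lines was not tested. MYC, the family member already present in these cells, read 221 ± 88.7 before induction and 68.4 ± 58.2 by the last time in the MYCN line, and 239.8 to 298.4 in the mock line.

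Of the 9 tested members, 4 rose and 1 fell against time 0 at some time after induction. The share of all genes that passed at any of the 6 times was not counted, so these totals have no background beside them. In RNA from whole cultures, a change in the share of cells that express a gene and a change in RNA per cell cannot be told apart. CCND1, CCNE1, CCNE2 and CDK6 rose, CDKN1B fell, and CCND3, CDK4 and SKP2 passed the test at no time. CDKN2A counts among the 9 by a mean signal over both lines, which its mock arrays raised. In the MYCN line it read 2.3 to 40.4 (median 18), near background, so its outcome in the comparisons over time says nothing about a change. A gene is counted here where its limma p, adjusted by Benjamini-Hochberg over all 11865 genes, lay under 0.05. At times 4 and 8 none of the 9 passed (limma; 1 and 0 of them at an unadjusted p under 0.05), against 0.00843% and 0.767% of all genes in either direction. At time 24, 1 was higher (3.91% of all genes) and 0 lower (3.27%). At time 48, 2 were higher (7.04%) and 1 lower (7.67%). At time 96, 3 were higher (10.3%) and 1 lower (13.2%). At time 192, 3 were higher (11.6%) and 1 lower (14.1%). A moderated F-test over the 6 times passed 4 of 9, against 25.4% of all genes.

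**Figure D1:**
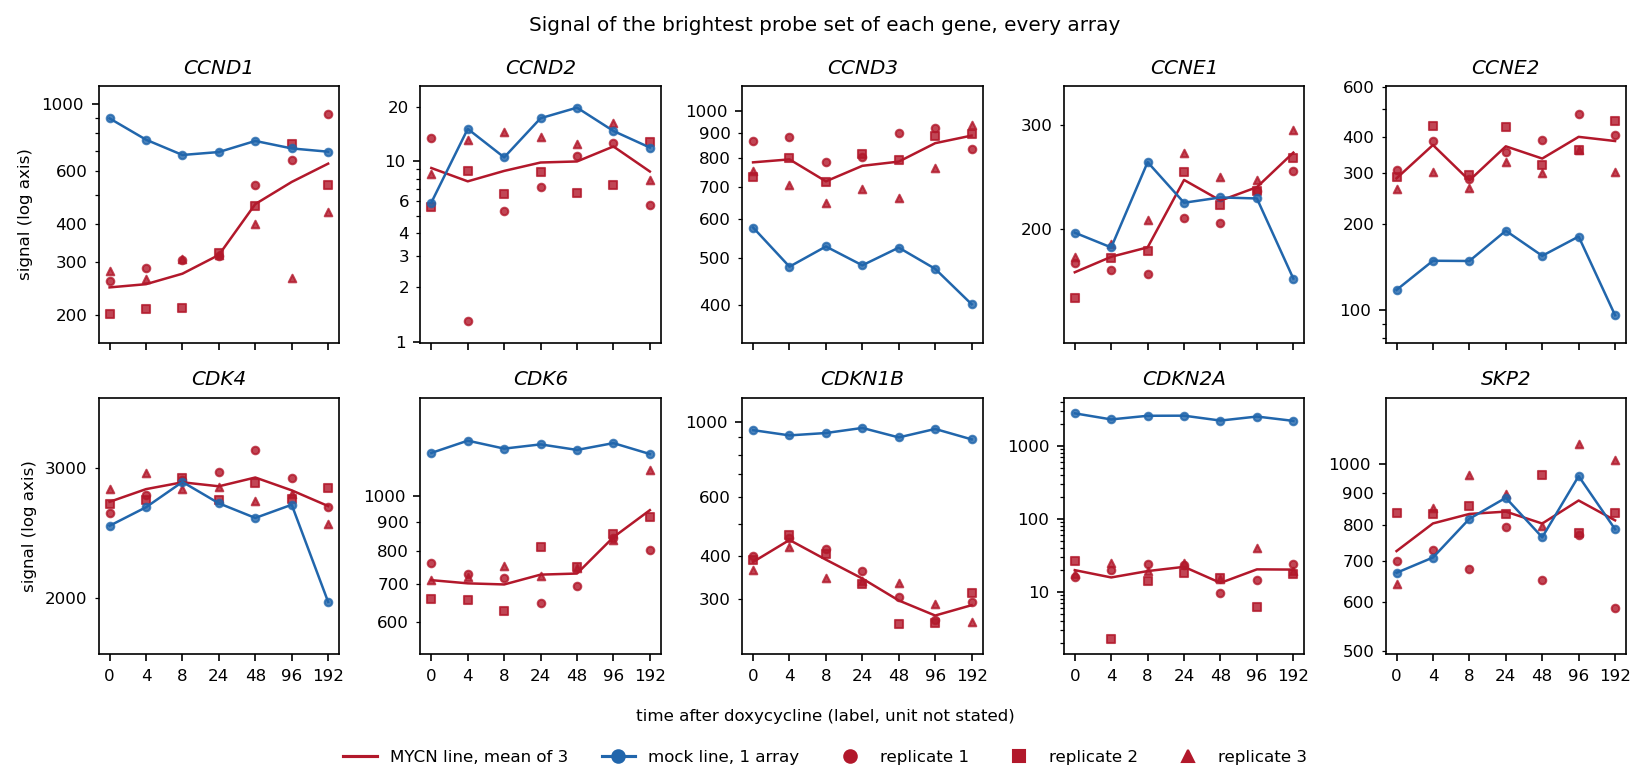
Signal of the brightest probe set of each of the 10 genes on a log axis (vertical) against the time label (horizontal, unit not stated). Red points are the 3 replicates of the MYCN line with a line through their mean, and blue points are single arrays of the mock line. CCND1 ends higher and CDKN1B lower than at time 0 in the MYCN line, CDK4 lies between 2514.8 and 3167.6 there, and CDKN2A lies between 2206.6 and 2799.5 in the mock line and at or below 40.4 in the MYCN line.

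CCND1, which encodes cyclin D1, had the largest rise of the group. Its signal in replicates 1, 2 and 3 was 259.5, 200.7 and 279.7 before induction. It reached 312.3, 320.3 and 314.8 by time 24 and 536.6, 460.3 and 399.5 by time 48. Time 96 gave 651.9, 736.2 and 264.9, and time 192 gave 922.5, 538.1 and 439.7. All arrays of times 24, 48 and 192 lay above those of time 0, while replicate 3 of time 96 fell among them; the arrays of times 48, 96 and 192 overlapped one another. The log2 change against time 0 at times 48, 96 and 192 was 0.92, 1.04 and 1.30 (SE 0.30, limma adjusted p = 0.0429, 0.0152 and 0.00296). In the mock line CCND1 read 894.5 at time 0 and 676.8 to 760.4 later, so all its later arrays lay below its first. A second CCND1 probe set, dimmer on average, had a change of 1.31 (SE 0.32) for that last time (limma adjusted p = 0.00687 over 24655 probe sets); for time 48 its arrays overlapped time 0 and it did not pass (0.89, adjusted p = 0.0894). The call at time 192 ended without replicate 1 (1.04, adjusted p = 0.0840) and without replicate 2 (1.24, adjusted p = 0.0561). The call at time 48 ended without any one of the 3 time 0 arrays or without replicate 1 or 2 of time 48 (0.78 to 1.02, adjusted p = 0.0655 to 0.157), and that at time 96 without replicate 2 of time 0 (0.90) or without replicate 1 (0.85) or 2 (0.77) of time 96. Both also ended without replicate 1 (0.86 and 0.90) or replicate 2 (0.78 and 0.63) at all times, and that at time 48 with equal array medians, the mean of all probe sets or no filter (adjusted p = 0.103, 0.0662 and 0.0621).

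CCND3 encodes cyclin D3. Its signal in replicates 1, 2 and 3 was 868.4, 733.7 and 753.8 before induction and 836, 898.5 and 938.6 by time 192, and these arrays overlapped. The change at time 192 was 0.18 (SE 0.12, limma adjusted p = 0.272). In the mock line CCND3 went from 577.3 to 401.9 over the same times, and all 7 mock arrays lay below all 21 of the MYCN line. CCND2, the gene of cyclin D2, had no signal to compare: its 4 probe sets read at most 19.8 on any array, and their means over all arrays lay below the filter of 12.8.

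CCNE1, which encodes cyclin E1, rose at time 24 and at each later time. Replicates 1, 2 and 3 read 175.5, 152.9 and 179.2 before induction. They read 208.5, 249.2 and 268.6 by time 24, and 250.5, 263.6 and 293.4 by time 192. Every array from time 24 on lay above those of time 0. The change at times 24, 48, 96 and 192 was 0.51, 0.40, 0.48 and 0.67 (SE 0.11, limma adjusted p = 0.00830, 0.0225, 0.00459 and 2.45e-04). The mock line started from 197.3, read 186.3 to 259.4 over times 4 to 96 and ended with 165.1, so some of its arrays also exceeded their start. A second CCNE1 probe set read at most 5.5 on all arrays; averaged with it, the change at time 24 was -0.10 and that at time 192 was 0.64 with adjusted p = 0.253. The calls at times 24 and 96 ended without replicate 2 (0.42 and 0.42), and that at time 48 without replicate 2 of time 0 (0.33), replicate 2 or 3 of time 48 (0.41 and 0.33) or any replicate at all times (0.34 to 0.49).

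CCNE2, the gene of cyclin E2, read 308.4, 291.3 and 263.9 in replicates 1, 2 and 3 before induction. The same replicates gave 483.5, 359.7 and 360.4 by time 96, then 406.1, 455.4 and 302.5 by time 192. All arrays of time 96 lay above time 0, and those of time 192 overlapped it. The change was 0.47 (SE 0.16) at time 96 (limma adjusted p = 0.0443) and 0.41 at time 192 (adjusted p = 0.0702). In the mock line CCNE2 went from 117.8 to 180.6 by time 96 and 96.2 by time 192, a change of 0.62 and then -0.29 with 1 array each. The other CCNE2 probe set did not pass for time 96 (0.39, adjusted p = 0.205 over probe sets) or time 192 (0.21, adjusted p = 0.542). The time 96 call ended without any one of the 3 time 0 arrays (0.41 to 0.52) and without replicate 1 (0.33) or 2 (0.54) of time 96, and with equal array medians, the mean of all probe sets, no filter or no _s_at and _x_at probe sets (adjusted p = 0.227, 0.112, 0.0634 and 0.0515). With the replicate number as a block, which the data bear out at times 4, 8 and 192, CCNE2 passed at time 192 (adjusted p = 0.0101), as it did without replicate 3 of that time (0.58, adjusted p = 0.0148).

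CDK4, the catalytic partner of the D cyclins, passed the test at none of the 6 times. Its signal in the MYCN line was 2601.9, 2679.7 and 2812 before induction and 2655.6, 2817.6 and 2514.8 by time 192. Arrays of all 6 later times overlapped those of time 0. The change lay between -0.02 and 0.11 (SE 0.06, limma adjusted p = 0.293 to 0.937). The CDK4 window printed above holds 3 E-boxes, and the CDK6 window printed there holds 1. CDK6 passed the test at time 192. Any link between an E-box and the signal was not tested. In the mock line CDK4 read 2504.3 to 2869.9 at times 0 to 96 and 1976.9 at time 192.

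CDK6, the paralogue of CDK4, rose late. Replicates 1, 2 and 3 read 762.5, 658.7 and 711.1 before induction. By time 96 they read 844.7, 857.4 and 836.1, and by time 192 802.6, 918.8 and 1110.2. All arrays of times 96 and 192 lay above those of time 0. The change was 0.25 (SE 0.11) at time 96 (limma adjusted p = 0.0950) and 0.40 at time 192 (adjusted p = 0.00925). Of the 7 CDK6 probe sets, all had a positive change at time 192 (0.22 to 0.57), and 2 passed the test over probe sets. On the brightest probe set the mock line read 1185.1 to 1251 at all 7 times, above every array of the MYCN line. Its lowest mock array was 1.07 times the highest MYCN array. For another CDK6 probe set this ratio was 1.003, and the rest overlapped between the lines. The call at time 192 ended without replicate 3 of that time (0.28, adjusted p = 0.0611), and without replicate 2 (0.36) or replicate 3 (0.28) at all times.

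CDKN1B, the p27 gene, was the member that fell. Its signal in replicates 1, 2 and 3 was 400.9, 389.8 and 364.1 before induction and 453.2, 463.4 and 425.3 by time 4, when all 3 arrays lay above time 0 without passing the test (0.22, SE 0.11, limma adjusted p = 0.775). Time 48 gave 302.9, 251.9 and 333.2, time 96 gave 258.7, 254.6 and 288, and time 192 gave 293, 311.4 and 255.5. Every array from time 24 on lay below those of time 0. The log2 change at times 48, 96 and 192 was -0.39, -0.53 and -0.43 (SE 0.11, limma adjusted p = 0.0209, 0.00158 and 0.00614). The mock line read 888.5 to 960.5 at its 7 times. The calls at all 3 times ended with equal array medians (-0.34, -0.50 and -0.40) and without replicate 1 (-0.38, -0.48 and -0.42), and that at time 48 also without replicate 1 (-0.36) or 2 (-0.38) of time 0 or replicate 2 of time 48 (-0.28). Without replicate 2 at all times the calls at times 48 and 96 ended (-0.27 and -0.49).

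SKP2, whose product recruits p27 for degradation, read 699.2, 834.5 and 641.5 before induction and 586.2, 834.2 and 1017.1 by time 192 on its brightest probe set. There the arrays of all 6 later times overlapped those of time 0. The change was 0.14 to 0.26 (SE 0.18), with a limma adjusted p of 0.338 to 0.943. In the mock line this probe set read 669 at time 0 and 708 to 957.1 later, so all its later arrays lay above the first. On the other SKP2 probe sets the mock array of time 4 lay below that of time 0 (234.2 against 241.4, and 120.8 against 130). In the MYCN line a second SKP2 probe set had all arrays of times 8, 24 and 48 above those of time 0 (0.27, 0.31 and 0.32, SE 0.12, limma adjusted p = 0.521, 0.167 and 0.0987 over probe sets). The third had a change of 0.40 (adjusted p = 0.167) by time 48, with arrays that overlapped. By time 192 the 3 probe sets gave 0.03 to 0.14, and no SKP2 probe set passed for any time.

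**Figure D2:**
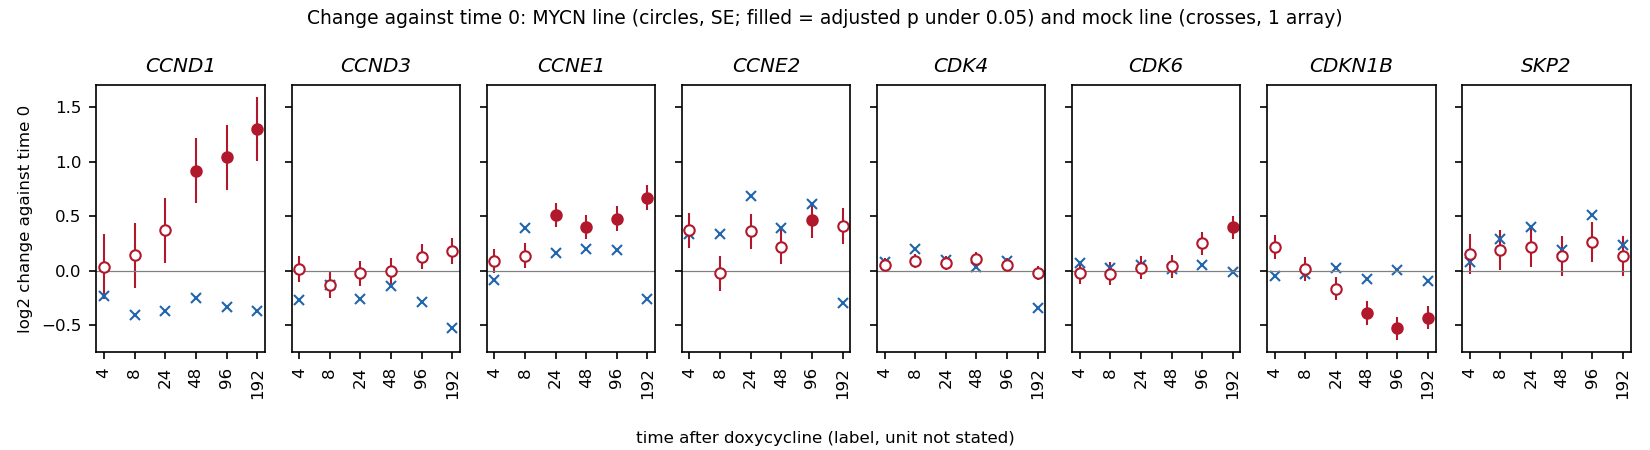
Log2 change against time 0 (vertical) at each of the 6 later times (horizontal, unit not stated) for the 8 tested genes other than CDKN2A. Circles are the MYCN line with the SE, filled where the limma adjusted p lay under 0.05; crosses are single mock arrays against the mock time 0 array. CCND1 reaches 1.30 and CCNE1 0.67 at time 192, CDKN1B lies at -0.43, and CDK4 at -0.02.

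Whether these courses differ from the mock line was tested as the difference between the lines in the slope per time step, steps being numbered in the order of the times. The mock slope alone passed for 0 of 9 members (limma; 1 at an unadjusted p under 0.05), against 3.13% of all genes. The slope of the MYCN line was above that of the mock line for 3 members (11.2% of all genes) and below it for 1 (12.8%). The difference was 0.28 for CCND1 (SE 0.07, limma adjusted p = 0.00338), 0.12 for CCNE1 (adjusted p = 0.0124), 0.090 for CCND3 (adjusted p = 0.0329) and -0.11 for CDKN1B (adjusted p = 0.0147). For CCND3 the mock slope (-0.057) was steeper than that of the MYCN line (0.032), and CCND3 had passed at no time against time 0. CDK6 had a slope difference of 0.067 (adjusted p = 0.0801), CDK4 0.040 (adjusted p = 0.195), CCNE2 0.069 (adjusted p = 0.397) and SKP2 -0.032 (adjusted p = 0.644). The mock array of time 192, where CCND3, CCNE1, CCNE2 and CDK4 and also CDK6, CDKN1B and CDKN2A had their lowest mock signals, decides 3 of the 4 calls: without it the difference was 0.065 for CCND3, 0.064 for CCNE1 and -0.12 for CDKN1B (adjusted p = 0.283, 0.329 and 0.0529), the last no smaller than with it. With replicate 3 of the MYCN line and the mock line alone the CCND1 difference was 0.12 (adjusted p = 0.0706), and the calls of CCNE1 (0.13, adjusted p = 0.0750) and CCND3 (0.10, adjusted p = 0.0654) ended too. Without the mock array of time 0 the CCND3 call ended (0.078) and CDK4 passed (0.069, adjusted p = 0.0417). Without replicate 2 of the MYCN line the CCND3 call ended (0.082), without its replicate 1 CDK6 passed (0.088, adjusted p = 0.0198), and with equal array medians the calls of CDKN1B (-0.071, adjusted p = 0.297) and CCND3 (0.13, adjusted p = 0.0737) ended while CDK6 passed (0.10, adjusted p = 0.0362). With no filter the CCND3 call ended (adjusted p = 0.0506), and with the mean of all probe sets CCND3 had adjusted p = 0.389 and CCNE1 a difference of -0.027.

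The 2 lines already differed in this group before induction, most of all in CDKN2A. The gene was listed among the members because of that difference, so its values are a description with no test. Its brightest probe set read 2206.6 to 2799.5 on the 7 mock arrays and 2.3 to 40.4 on the 21 arrays of the MYCN line. The lowest mock array was 54.6 times the highest MYCN array. At time 0 the MYCN line read 15.9, 26.5 and 17.5 and the mock line 2799.5. A second probe set read 437.1 to 628.2 in the mock line and 0.4 to 8.3 in the MYCN line, and the third was at or below 11 in both. CDKN2A passed the low-signal filter on its mean over both lines, and in the MYCN line it stayed at 2.3 to 40.4 (median 18) at all 7 times. The signals do not tell p16 from ARF.

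**Figure D3:**
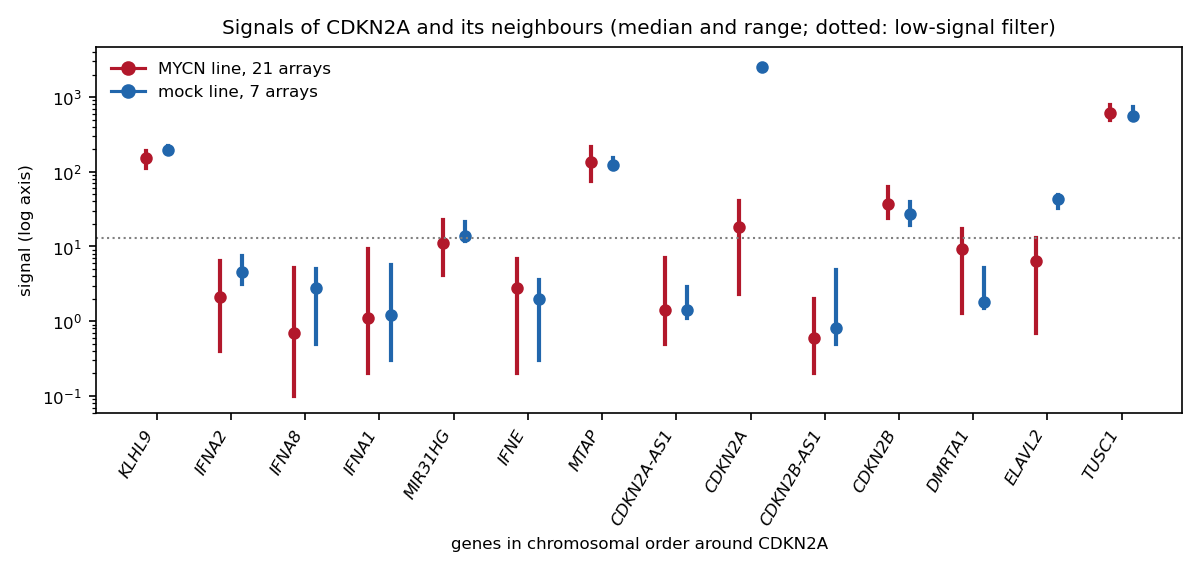
Signal (vertical, log axis) of CDKN2A and the 13 genes around it with a probe set, in their order along the chromosome (horizontal); points are medians and bars the range over 21 arrays of the MYCN line (red) and 7 of the mock line (blue). CDKN2A is separated by a factor of 54.6 between its nearest arrays, and 12 of the 13 neighbours overlap between the lines. Only 4 of the 13 reach the filter, so the overlap of the others says little. The share of all genes that overlap was not counted. The dotted line is the filter on mean signal (12.8).

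The genes beside CDKN2A were looked at for the same split. MTAP, a methionine salvage enzyme, read 74.9 to 211.6 in the MYCN line and 108.6 to 154.6 in the mock line. CDKN2B, which encodes the related inhibitor p15, read 24.1 to 61.6 and 19.2 to 39.8 in the same order. KLHL9 and TUSC1 also overlapped between the lines, and these 4 are the neighbours above the filter. ELAVL2 was the neighbour that did not overlap, at 32.7 to 48.5 in the mock line and 0.7 to 12.8 in the MYCN line. The transcripts next to CDKN2A on either side, CDKN2A-AS1 and CDKN2B-AS1, were at or below 7.1 in both lines.

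Of the other 8 tested members, 1 was higher in the MYCN line at time 0 (8.22% of all genes) and 3 were lower (6.56%). This test sets the 3 arrays of the MYCN line against 1 mock array, which is assumed to vary like the other groups. CCNE2 was higher by 1.29 (SE 0.23, limma adjusted p = 7.41e-04), at 263.9 to 308.4 against 117.8. CCND1 was lower (-1.87, SE 0.42, adjusted p = 0.00460), as were CDKN1B (-1.30, SE 0.15, adjusted p = 4.76e-06) and CDK6 (-0.75, SE 0.15, adjusted p = 0.00195). CCND3 (0.44, adjusted p = 0.0880), CCNE1 (-0.23), CDK4 (0.11) and SKP2 (0.11) did not pass. By time 192 the CCND1 difference was -0.20 and that of CDKN1B -1.64. The CDK6 call ended with equal array medians (-0.43), a scaling that moves the median difference of all genes from -0.01 to 0.31.

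**Figure D4:**
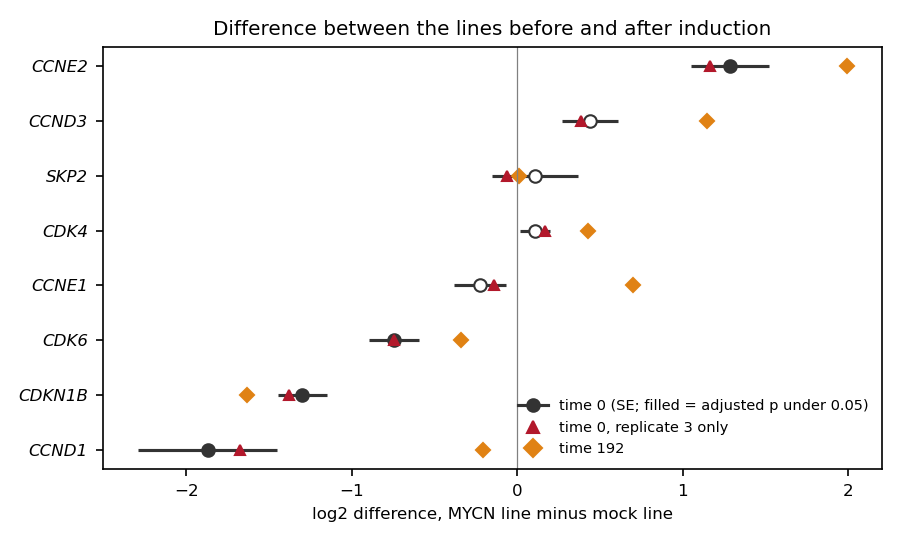
Log2 difference of the MYCN line minus the mock line (horizontal) for 8 members (vertical). Circles are time 0 with the SE, filled where the limma adjusted p lay under 0.05; triangles use replicate 3 of the MYCN line alone, and diamonds are time 192. CCND1 moves from -1.87 to -0.20 between times 0 and 192, CCNE2 from 1.29 to 1.99, and CDKN1B from -1.30 to -1.64.

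Other features also differed between the lines or between replicates. On 6 of 9 hybridisation control probe sets, replicates 1 and 2 of the MYCN line lay apart from its replicate 3 and the mock line (1544 to 1941 against 2322 to 2770 for a bioD probe set), and 3 overlapped. Replicate 3 alone gave like differences at time 0 (CCND1 -1.68, CCNE2 1.16, CDK6 -0.74, CDKN1B -1.38, CDKN2A -7.32). Of 9 measured noradrenergic neuroblastoma markers 6 passed the filter. The summed signal of all 9 was 505.1 to 779.2 in the MYCN line and 2541.9 to 3241 in the mock line. PHOX2A read 1.2 to 15.4 and 582.1 to 1133.3 in that order. GATA2, GATA3 and ISL1 were also higher on every mock array, while HAND2 and CHGA overlapped between the lines. DBH and TH, which define noradrenergic cells, were at or below 8.7 in both. Of 11 mesenchymal markers 10 passed (summed signal of all 11, 10694.1 to 13499.7 and 9196.4 to 10596.3). VIM alone read 4772.2 to 6908.2 and 4558.5 to 5330.5 in the same order. Among these 10, only TWIST1, lower in the MYCN line, and WWTR1, higher there, did not overlap between the lines over all arrays. At time 0 FN1 (3.17, limma adjusted p = 1.12e-05) and WWTR1 (0.77, adjusted p = 8.49e-04) were higher in the MYCN line and TWIST1 lower (-0.96, adjusted p = 0.0414). The 3 measured Schwann cell markers summed to at most 40.6. Of 4 white blood cell markers 1 passed, PTPRC, at 197.6 to 262.2 in the mock line and 1 to 36.2 in the MYCN line, while CD3E, CD14 and LYZ were at or below 15.9. Some markers also moved over the time course of the MYCN line. By time 192, of the 6 tested noradrenergic markers GATA2 (0.84) and GATA3 (0.39) were higher and CHGA (-3.06) and ISL1 (-0.43) lower; of the 10 mesenchymal markers FOSL1 (1.80) and CD44 (1.37) were higher and FN1 (-2.99), TWIST1 (-0.87) and PRRX1 (-0.58) lower (limma adjusted p = 4.37e-07 for FN1 to 0.0467 for PRRX1). PTPRC (-2.99) read 1 to 36.2 in this line, near background, so its outcome over time says nothing about a change. The same holds for PHOX2A, at 1.2 to 15.4 in this line. The part of these features in the differences between lines and in the changes of CCND1, CCNE1, CDK6 and CDKN1B was not tested.

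Around the members, a list of 28 other G1 genes was read, 27 of which were tested. At time 192, 2 were higher and 4 lower, against 11.6% and 14.1% of all genes, so these counts are near the background; the median change was -0.09 against -0.03 over all genes. E2F5, an E2F factor that pairs with retinoblastoma family proteins, rose from 35.5 ± 12.2 to 103 ± 12.7 (SD, n = 3; change 1.58, SE 0.21, limma adjusted p = 2.10e-05) and had passed from time 8 on. CDK7, part of the kinase that activates CDKs, rose by 0.47 (adjusted p = 0.0475). CDKN1C, which encodes the p27 relative p57, fell from 53.7 ± 11.4 to 18 ± 2.82 (SD, n = 3). The change was -1.57 (SE 0.29, limma adjusted p = 4.95e-04). In the MYCN line E2F5 read as low as 26.4 and CDKN1C as low as 13.9. Such signals were called near background for CDKN2A, so the sizes of both changes are uncertain. CDK2, the partner of the E cyclins, fell by 0.39 (adjusted p = 0.00312) and E2F1 by 0.55 (adjusted p = 0.0449). CUL1, the scaffold of the SKP2 ligase, fell by 0.47 (SE 0.10, adjusted p = 0.00165), with a mock change of -0.40 at that time. CKS1B, the cofactor of SKP2 for p27, was higher at times 48 (0.36, adjusted p = 0.0381) and 96 (0.33, adjusted p = 0.0407) and not at time 192 (0.18).

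Among genes that act after the G1 switch, no S phase or mitosis gene was higher at time 192 by the limma test. At that time 11.6% of all genes were higher and 14.1% lower. The counts of lower genes in both lists are near that background, and whether 0 higher differs from it was not tested. Of 19 tested S phase genes 0 were higher and 2 lower (0 and 5 at an unadjusted p under 0.05; median change -0.11, mock -0.35). TK1, thymidine kinase, fell by 0.37 (SE 0.09, limma adjusted p = 0.00633), with a mock change of -0.35. GINS2, part of the replicative helicase, fell by 0.41 (limma adjusted p = 0.00596), with a mock change of -0.22. Their slope differences between the lines did not pass (-0.023 and -0.042, limma adjusted p = 0.576 and 0.394). RRM2, a subunit of ribonucleotide reductase, was lower at times 24 (-0.45, adjusted p = 0.0365) and 48 (-0.41), and ORC1, which marks replication origins, passed the F-test (adjusted p = 0.0111) and at no single time. Of 16 mitosis genes 3 were higher at time 96, against 10.3% of all genes. Among them were the ubiquitin-conjugating enzyme UBE2C (0.33, limma adjusted p = 0.0181) and the checkpoint kinase BUB1 (0.41, adjusted p = 0.0232). At time 192 none was higher (limma; 2 at an unadjusted p under 0.05) and 2 were lower, the spindle motor KIF11 (-0.43, adjusted p = 0.00194; mock -0.32) and the topoisomerase TOP2A (-0.21, adjusted p = 0.0265; mock 0.21). Against the mock line, the slope of the MYCN line was above for 5 of the 16 mitosis genes and below for 1, and above for 3 of the 19 S phase genes, next to 11.2% above and 12.8% below over all genes. MYBL2, a cell cycle transcription factor of the S phase list, had a slope difference of 0.17 (adjusted p = 1.90e-04), made of slopes of 0.031 (MYCN line) and -0.14 (mock line). CDC20 (0.17, adjusted p = 9.05e-04) and CCNB1 (0.11, adjusted p = 0.0109), which act in mitosis, had slope differences beside a negative mock slope (-0.11 and -0.073). Before induction, 12 of the 19 S phase genes, 7 of the 16 mitosis genes and 6 of the 27 other G1 genes were higher in the MYCN line than in the mock line by the limma test; 2 of the other G1 genes were lower. Over all genes 8.22% were higher and 6.56% lower.

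The genes whose log2 means over the 14 line-by-time points ran most like each member are given as a description. The points share the difference between lines, which most of these correlations follow. OSBPL3 (Pearson r = 0.989) and CHD7 (0.972) ran like CCND1, and LASP1 (0.987) and SPATS2L (0.986) like CCND3. CCNE2 was nearest to PRIM1 (0.988) and POLE2 (0.984), which encode a primase subunit and a subunit of DNA polymerase epsilon. GATA2 (0.989) and GPRC5C (0.986) ran like CDK6, TDO2 (0.997) and PI15 (0.995) like CDKN1B, and RELN (0.997) and CLCN3 (0.995) like CDKN2A. CDK4 was nearest to RAB5C (0.963) and ATP5PF (0.954). For CCNE1, whose lines overlap, the nearest were KRT10-AS1 (0.875) and UXT (0.858), and for SKP2 NT5DC1 (0.804) and LINC01511 (0.787).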

How the data were processed

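The authors' deposited table holds 1 intensity per probe set and array on a linear scale; per the submitters' processing notes it was made with MAS5 and GCOS (versions not given in the sources used here). The 2% trimmed mean was 100.0 on every array, and array medians were 12.9 to 20.2; the number of arrays limits the precision. Of 54675 probe sets, 41091 name 1 gene, 1801 several and 11777 none. The lowest positive value, 0.1, replaced 91 values of 0 or less before log2 was taken. A gene's brightest probe set stood for it, and genes whose mean log2 signal reached its 40th percentile (3.68) were tested.

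Linear models from limma 3.58.1 in R 4.3.3, with a trended eBayes step, gave two-sided p-values, adjusted by Benjamini-Hochberg. Times were compared with time 0 over 21 arrays (14 residual degrees of freedom), slopes over the 7 mock arrays (5) and over all 28 (24). The fits were tested on simulated data. Deviations of same-numbered replicates correlated above 0.1 for all 3 numbers at times 4 (0.188 to 0.323), 8 (0.241 to 0.367) and 192 (0.129 to 0.226), and not at times 24, 48 and 96; the labels give only the numbers. Replicate arrays correlated at 0.923 to 0.936, and none were identical. The members and lists were chosen with earlier results of these data known. Named were all members, MYCN, MYC, from each list the 3 genes of smallest F-test p, and the 2 genes most like each member; CDK7, CDK2, E2F1, CKS1B, GINS2, TOP2A, MYBL2, CDC20, CCNB1, the markers and the CDKN2A neighbours were named after their values were seen.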

Additional observations from a re-analysis of the deposited data

Results flagged for a closer look

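The slopes per time step differed between the lines for 4 members, by the test of line by time step over 28 arrays. CCND1 had a difference of 0.28 (MYCN line minus mock line), CCNE1 0.124, CCND3 0.0896 and CDKN1B -0.107. The CCND1 difference was 0.125 (limma adjusted p = 0.0706) with replicate 3 of the MYCN line and the mock line alone, and those of CCND3 (0.065), CCNE1 (0.064) and CDKN1B (-0.12, adjusted p = 0.0529) lost their calls without the mock array of time 192.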

How the results depend on the processing

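All alternatives but those on the time 0 line difference across scalings, probe set choices, filters and left-out arrays, and the block in the slope fit, were listed beforehand; those were added after the data were seen. Of 660 recomputed single values 552 kept their direction and their side of the threshold, 69 lost the call, 8 gained it, 3 moved and 28 changed sign, 4 of which were called before the change and 0 after it. With the mean of all probe sets, 0 members passed at time 24, 1 at time 48, 2 at time 96, 2 in the F-test and 2 in the slope difference; CCNE1 then changed by -0.10, -0.28 and -0.32 at times 24, 48 and 96, its slope difference was -0.027, its mock slope 0.073 and its line difference 0.29, CCND3 changed by -0.15 at time 192 with a line difference of -0.50, and the mock slopes of CCNE2 and CDKN2A were 0.030 and 0.022. Averaging takes in probe sets at background. With equal array medians, 1 passed at time 48, 2 at time 96 and 2 in the F-test, with 2 probe sets in their F-test, CDK4 changed by 0.0076 at time 192, the SKP2 slope difference was 0.0037 and the CCNE1 line difference 0.096. With quantile normalization the mock slopes of CDK6 and CDKN1B were 0.012 and 0.0076. With the replicate number as a block 2 passed at time 24 and 10 probe sets in the F-test; it added CCNE2 at time 192. The hybridisation split as a block gave 2 at time 24. A fit of 2 times alone gave 1 at time 48 and 2 at time 96. Replicate 3 and the mock line alone gave 1 in the slope difference (SKP2 0.034), and SKP2 differed by -0.061 at time 0. Leaving out replicates or single arrays gave 0 to 1 calls at time 24, 0 to 2 at time 48, 0 to 4 at time 96, 2 to 4 at time 192, 1 to 4 in the F-test and 1 to 5 in the slope difference. The same steps moved the uncalled time 192 changes of CDK4 from -0.066 to 0.051, CDKN2A from -0.23 to 0.37 and SKP2 from -0.13 to 0.35, and the slope differences of CCNE2 from -0.043 to 0.13 and CDK4 from -0.0084 to 0.069. The cause of these changes was not tested.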
